A study of Mus musculus with 24 samples.

Results

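The genes of the type IV collagen network and of its core partners in the basement membrane were followed in cultured D2.1 and D2A1 mammary tumor cells and in the tumors these cells formed. The members were 10 genes selected by gene symbol, out of 34519 genes listed for both the cells and the tumors: the type IV collagen chains Col4a1, Col4a2, Col4a3, Col4a4, Col4a5 and Col4a6, the nidogens Nid1 and Nid2, perlecan (Hspg2) and peroxidasin (Pxdn). Of these, 8 carried enough counts to be tested in at least 1 comparison, while Col4a3 and Col4a4, chains of restricted tissues such as kidney and lung, never exceeded 8 and 10 counts and were at 0 in 10 and 8 of the 24 libraries. The family was proposed with differences among these same groups already known, so the p-values below describe the size of a difference against the spread between libraries and are not independent support for it.

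Basement membranes are thin sheets of matrix under epithelia and around blood vessels, fat and muscle cells. Their scaffold is a covalent network of type IV collagen, whose triple-helical protomers combine alpha chains in fixed sets, most commonly the chains of Col4a1 and Col4a2, with tissue-restricted sets that use the chains of Col4a3, Col4a4, Col4a5 and Col4a6. Peroxidasin forms the sulfilimine bonds that crosslink protomers in this network, and nidogens and the heparan sulfate proteoglycan perlecan connect it to a second network made of laminin. In breast tissue the loss or crossing of this sheet separates in situ from invasive growth, and around tumor vessels it is made by endothelial cells and pericytes.

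D2.1 and D2A1 are related lines from hyperplastic alveolar nodules of female BALB/c mice. D2A1 grows rapidly after dissemination and D2.1 can stay dormant. There were 3 libraries of each line in culture, 4 of D2.1 and 4 of D2A1 tumors from immunocompetent BALB/c mice, and 5 of each from SCID-beige mice, which carry the Prkdc scid and Lyst bg alleles, lack T and B cells and have defective natural killer cells. Hosts were females of 8 to 12 weeks, each given 1000000 cells in a mammary fat pad, and tumors were taken at about 500 mm3. In the authors' flow cytometry, D2.1 tumors needed more days than D2A1 tumors to reach a like size. The labels do not give days in the host, so line and time in the host cannot be told apart in the tumors. Tumor libraries hold RNA of host and tumor cells together, so fewer cells of a type and less RNA per cell cannot be told apart. Nothing in the labels says that cultures of 1 line were started separately, so the p-values in culture may measure technical spread.

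Library totals ran from 16837260 to 24818234 counts in culture and from 13566949 to 18355153 in tumors. Levels between libraries are given as counts per 1000000 (CPM) on 1 scale for the 24 libraries. Over the raw library totals, before this scaling, 3 counts are 0.121 to 0.221 CPM. Summed T cell markers were 5.43 to 134 CPM in BALB/c tumors and 0.684 to 13.4 CPM in SCID-beige tumors, without overlap between hosts within a line. Of 6 mammary tumor cell markers, each had more than 3 counts in every cultured D2.1 library, and 4 did in cultured D2A1, where Epcam had 1 to 4 counts and Krt14 2 to 15. Among the D2.1 tumors in BALB/c mice, replicate 1 stood apart with 385 CPM of milk protein markers against at most 0.761 CPM in the others, and with the highest adipocyte and skeletal muscle sums of its group (391 and 346 CPM), and replicate 4 had the highest skin marker sum (118 CPM). Results that rest on these libraries are also given without them.

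Type IV collagen genes lie head to head in pairs, and the pairs differed in how far their members moved together. On GRCm38 (GENCODE M21), Col4a1 starts at chromosome 8 position 11312826 on the minus strand and Col4a2 at 11312805 on the plus strand, so that the annotated genes share 22 bases. Col4a4 starts at chromosome 1 position 82586849 and Col4a3 at 82586921, with 71 bases between them. Col4a6 starts at chromosome X position 141474076 and Col4a5 at 141475385, with 1308 bases between them. Reads over the 22 shared bases could be assigned to either gene if counting did not use the strand, which is not given in the sources used here.

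The promoters of the pair that moved together (Col4a1 and Col4a2) and of the pair that did not (Col4a5 and Col4a6) are shown for comparison, from RefSeq on GRCm38.p6. RefSeq promoter windows were matched for 8 of the 10 members, all but Col4a3 and Nid2. Each window covers 250 bases before and 50 bases after the start on the gene's own strand: chr8:11312777-11313076 (minus) for Col4a1, chr8:11312555-11312854 (plus) for Col4a2, chrX:141475169-141475468 (plus) for Col4a5 and chrX:141474027-141474326 (minus) for Col4a6. Capitals mark CCAAT and GGGCGG or their reverse complements ATTGG and CCGCCC, searched on both strands.
Col4a1: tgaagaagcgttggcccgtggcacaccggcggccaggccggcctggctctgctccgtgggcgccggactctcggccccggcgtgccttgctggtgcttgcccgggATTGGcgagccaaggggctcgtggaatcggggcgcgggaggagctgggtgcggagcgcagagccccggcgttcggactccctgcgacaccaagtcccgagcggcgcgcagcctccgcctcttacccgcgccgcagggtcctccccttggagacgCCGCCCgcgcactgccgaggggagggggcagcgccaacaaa
Col4a2: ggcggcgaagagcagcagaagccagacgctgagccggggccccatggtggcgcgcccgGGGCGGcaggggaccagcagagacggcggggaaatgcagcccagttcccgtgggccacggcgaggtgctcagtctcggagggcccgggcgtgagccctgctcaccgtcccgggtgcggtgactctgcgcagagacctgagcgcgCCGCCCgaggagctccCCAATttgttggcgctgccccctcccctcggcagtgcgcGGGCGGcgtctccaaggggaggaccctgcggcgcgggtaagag
Col4a5: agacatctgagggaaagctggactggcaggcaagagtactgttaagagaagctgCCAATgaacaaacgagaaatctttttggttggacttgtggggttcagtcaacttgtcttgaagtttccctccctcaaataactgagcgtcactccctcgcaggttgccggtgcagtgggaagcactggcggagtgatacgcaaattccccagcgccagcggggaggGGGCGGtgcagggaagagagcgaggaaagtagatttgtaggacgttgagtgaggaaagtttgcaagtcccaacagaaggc
Col4a6: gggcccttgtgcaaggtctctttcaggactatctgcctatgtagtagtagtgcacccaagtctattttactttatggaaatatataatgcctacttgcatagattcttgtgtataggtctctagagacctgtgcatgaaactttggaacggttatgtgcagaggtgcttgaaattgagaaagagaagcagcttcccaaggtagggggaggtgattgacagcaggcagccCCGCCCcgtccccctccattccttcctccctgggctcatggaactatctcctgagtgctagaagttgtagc
The windows of Col4a1 and Col4a2 overlap by 78 bases, and both are rich in CG dinucleotides, with 37 and 33 of them against a median of 7 over 32851 promoters. Fewer CG dinucleotides were present in 94.4% of all promoters than in that of Col4a1 and in 91.4% than in that of Col4a2. Col4a5 had 11 and Col4a6 had 3. CCAAT was found once each in the windows of Col4a1, Col4a2 and Col4a5 and not in that of Col4a6, and 37.4% of all promoters held it. GGGCGG was found 1 time in Col4a1, 3 times in Col4a2, 1 time in Col4a5 and 1 time in Col4a6, and 35.7% of all promoters held it.

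In culture, D2A1 cells had abundant mRNA of the major collagen IV chains, and D2.1 cells had almost none. Counts of Col4a1 were 8530, 8424 and 13403 in the D2A1 cultures and 2, 8 and 4 in the D2.1 cultures. Counts of Col4a2, the partner chain, were 7579, 7516 and 11795 in D2A1 and 9, 7 and 3 in D2.1. The lines did not overlap in either gene, and each D2.1 culture was within a few counts of 0. Over the summed counts, D2A1 exceeded D2.1 by 2643-fold for Col4a1 (95% exact interval 1575 to 4835) and by 1725-fold for Col4a2 (1104 to 2866), with intervals that cover counting error only. The fitted log2 fold changes of D2.1 over D2A1 were -11.19 (SE 0.34) and -10.58 (SE 0.33). Col4a6, a minor chain, was low in D2A1 (17, 20 and 25 counts) and nearly undetected in D2.1 (0, 0 and 1 count), a ratio of 75.6 with a counting interval of 13.1 to 3033.

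Col4a5, by contrast, was present in both lines at 156, 167 and 292 CPM in D2.1 and 170, 178 and 228 CPM in D2A1, and these ranges overlapped (log2 fold change 0.12, SE 0.24, edgeR adjusted p = 0.7). Perlecan was at 252, 290 and 336 CPM in D2.1 and 236, 222 and 241 CPM in D2A1. Peroxidasin was at 234, 247 and 336 CPM in D2.1 and 164, 158 and 293 CPM in D2A1. The perlecan values of D2.1 lay just above those of D2A1, and the peroxidasin values overlapped, with replicate 3 the highest in both lines. Nidogen mRNA was close to absent in culture. Nid1 had 3 to 5 counts in each library except D2A1 replicate 3, which had 40, and Nid2 had 0 to 2 counts.

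Of the 6 members tested in culture, 0 were higher and 3 lower in D2.1 (Col4a1, Col4a2 and Col4a6), where 24.2% of the 12489 genes tested were called higher and 20.7% lower. Perlecan (log2 fold change 0.36, SE 0.13, adjusted p = 0.055) and peroxidasin (0.44, SE 0.24, adjusted p = 0.17) did not pass edgeR's test without pairing. DESeq2, also without pairing, called perlecan (adjusted p = 0.041) and not peroxidasin (0.17). With the replicate number as a block in edgeR, both genes passed (adjusted p = 0.0076 and 0.00081). The block called 5 of the 6 members and 60.4% of the 12489 genes. Across the alternatives the adjusted p ranged from 0.0076 to 0.18 for perlecan and from 3.9e-05 to 0.42 for peroxidasin. Perlecan passed without D2.1 replicate 1 (adjusted p = 0.039) and peroxidasin without D2A1 replicate 3 (0.0079).

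Per kilobase of transcript, Col4a1 and Col4a2 led the members in D2A1 and were near the bottom in D2.1. In cultured D2A1, Col4a1 and Col4a2 reached 89.1 ± 24.3 and 81 ± 21.4 FPKM (SD, n = 3), ahead of peroxidasin at 30.4 ± 11.8, Col4a5 at 28.8 ± 5.19 and perlecan at 16.1 ± 0.92 FPKM. In cultured D2.1, peroxidasin led at 37.9 ± 9.68 FPKM, followed by Col4a5 at 29 ± 12.3 and perlecan at 18.9 ± 3.51, with Col4a1 at 0.0324 ± 0.0166 and Col4a2 at 0.0468 ± 0.0231 FPKM. Col4a1 and Col4a2, and Pxdn and Col4a5, in D2A1, and Pxdn, Col4a5 and Hspg2 in D2.1, lay within 1 SD of their neighbour in this order. The FPKM ratio of Col4a1 to Col4a2 was 1.09 to 1.11 in the D2A1 cultures. Cultured D2.1 cells carried mRNA for a Col4a5 chain, for perlecan and for the crosslinking enzyme without mRNA for the chains of the common protomer at more than trace counts.

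**Figure D1:**
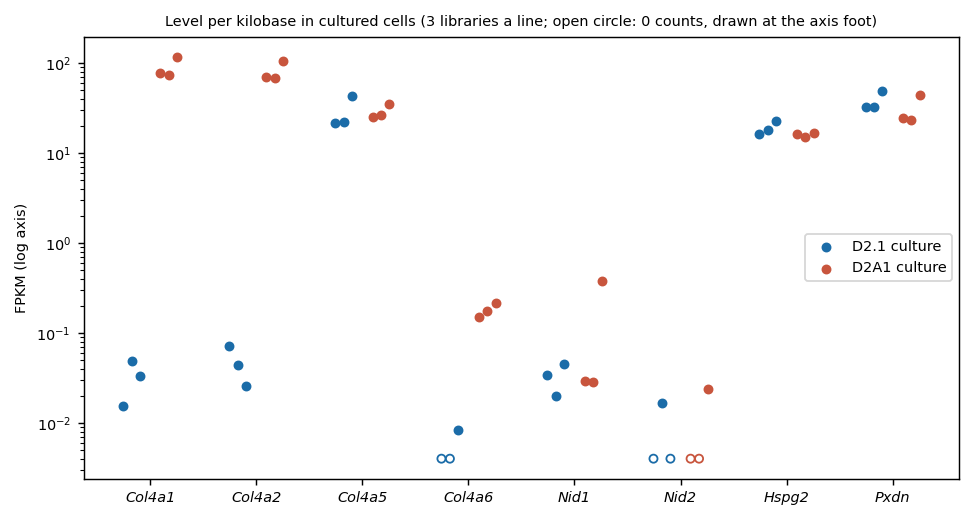
Levels per kilobase in cultured cells, as FPKM on a log axis, for the 8 members detected in any group (1 point per library, 3 libraries per line, open circles at 0 counts). Col4a1 and Col4a2 separate the lines by more than 3 orders of magnitude on this axis, from 0.0155 to 117 FPKM for Col4a1, while Col4a5, Hspg2 and Pxdn sit together.

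In tumors, the major chains were present in both lines and remained lower in D2.1. Col4a1 was at 200, 159, 93.3 and 129 CPM in the 4 D2.1 tumors of BALB/c mice and at 544, 688, 454 and 475 CPM in the 4 D2A1 tumors. In SCID-beige mice it was at 129, 58.9, 140, 80.5 and 93.5 CPM in D2.1 and 690, 500, 972, 975 and 910 CPM in D2A1. Each D2A1 tumor exceeded each D2.1 tumor in both hosts. The difference of D2.1 from D2A1 was -1.89 on the log2 scale in BALB/c mice (SE 0.24, edgeR adjusted p = 0.00024) and -3.01 in SCID-beige mice (SE 0.27, adjusted p = 2e-06).

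Col4a2 followed the same order. It was at 112, 92.2, 67.3 and 80.9 CPM in D2.1 and 391, 457, 418 and 423 CPM in D2A1 tumors of BALB/c mice. In SCID-beige mice it was at 80, 40.8, 87.7, 57.8 and 52 CPM in D2.1 and 660, 492, 683, 731 and 642 CPM in D2A1. The lines did not overlap, with log2 differences of -2.25 (SE 0.17, edgeR adjusted p = 8.9e-06) and -3.33 (SE 0.22, adjusted p = 2.1e-07). The CPM ratio of Col4a1 to Col4a2 was 1.39 to 1.8 in the D2.1 tumors and 1.02 to 1.51 in the D2A1 tumors, against 1.12 to 1.14 in the D2A1 cultures, and these ranges of the tumors overlapped.

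Among the other chains, Col4a6 stayed on the D2A1 side. It had 33 to 52 counts per library in D2A1 tumors of BALB/c mice and 27 to 83 in those of SCID-beige mice. In D2.1 tumors it was at 0 in 2 of 4 and 4 of 5 libraries, with 9 and 4 counts in all, and it was called lower in D2.1 in both hosts (adjusted p = 0.0031 and 7.9e-05). Col4a5, whose start lies next to that of Col4a6, ranged from 57.9 to 231 CPM in D2.1 tumors and from 45 to 184 CPM in D2A1 tumors. It overlapped between the lines in both hosts, and its differences of 0.31 (SE 0.35, adjusted p = 0.53) and 0.37 (SE 0.39, adjusted p = 0.5) did not pass the test.

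**Figure D2:**
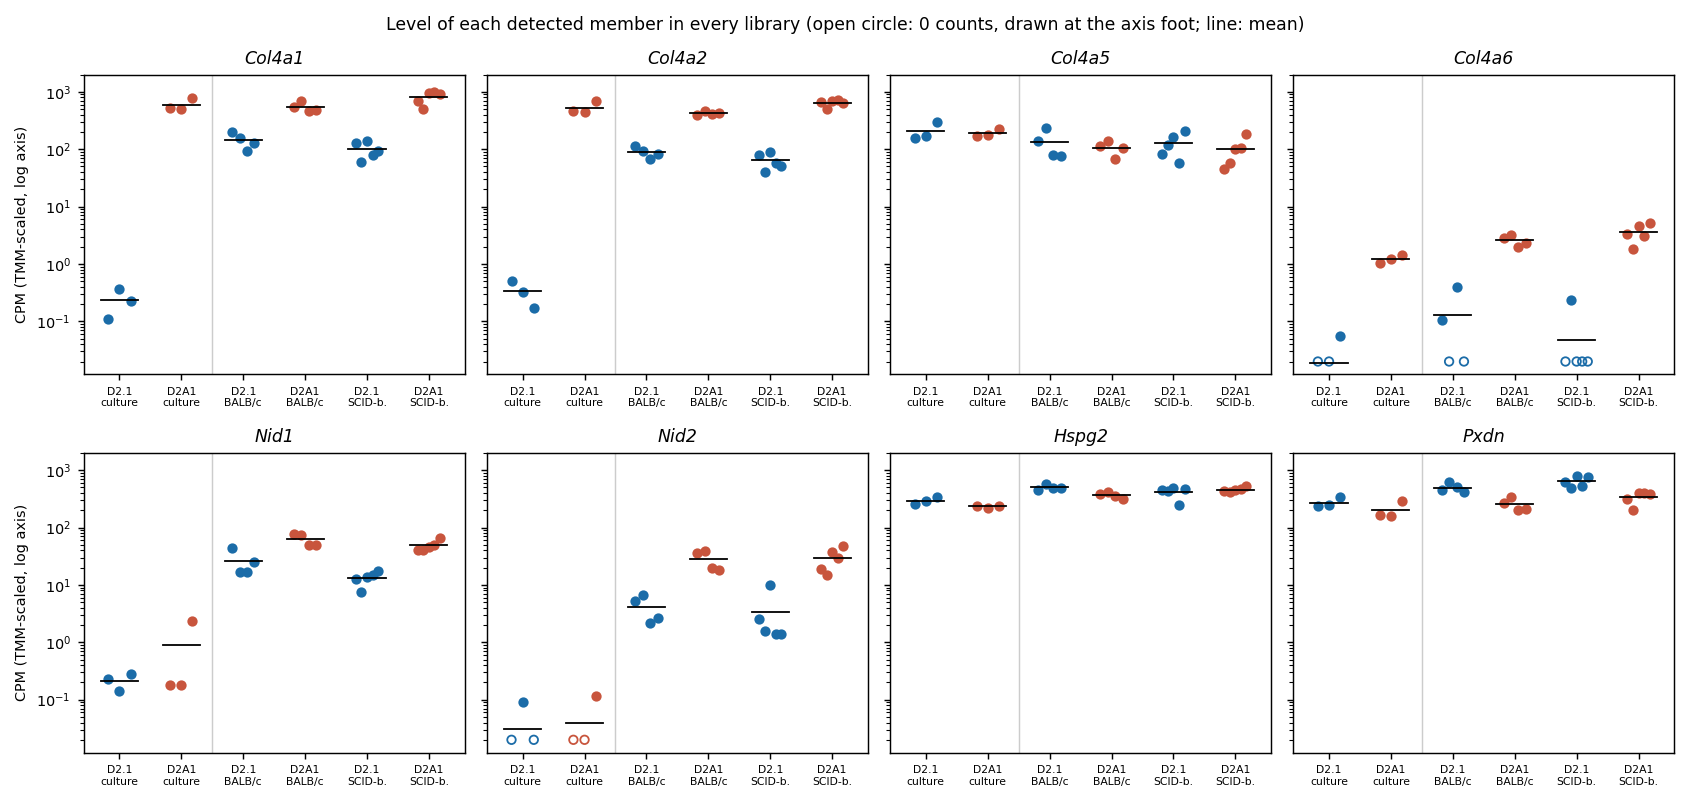
TMM-scaled CPM of 8 members on a log axis in every library of the 6 groups (1 point per library, open circles at 0 counts, horizontal line at the group mean). Col4a1 and Col4a2 are near 0 in D2.1 culture alone, Nid1 and Nid2 are near 0 in both cultures, and Col4a5, Hspg2 and Pxdn stay between 45 and 784 CPM in each group.

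The nidogens, which bridge the collagen IV and laminin networks, were also lower in D2.1 tumors. Nid1 was at 44.6, 16.6, 16.8 and 25 CPM in D2.1 against 75.6, 73, 49.4 and 50.4 CPM in D2A1 tumors of BALB/c mice. In SCID-beige mice it was at 12.6, 7.47, 13.7, 15 and 17.3 CPM in D2.1 and 41.3, 41.3, 45.9, 49.7 and 65.4 CPM in D2A1. The groups did not overlap, although D2.1 replicate 1 in BALB/c mice, the tumor with the high milk, fat and muscle markers, came within a few CPM of the lowest D2A1 tumor. The log2 differences were -1.26 (SE 0.33, edgeR adjusted p = 0.014) and -1.87 (SE 0.23, adjusted p = 4e-05), and the first was -1.67 (adjusted p = 0.0014) without that tumor and -1.90 (adjusted p = 0.0017) without replicates 1 and 4.

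Nid2 was at 5.22, 6.69, 2.18 and 2.66 CPM in D2.1 and 35.4, 38.6, 20 and 18.4 CPM in D2A1 tumors of BALB/c mice. In SCID-beige mice it was at 2.55, 1.58, 10.1, 1.41 and 1.37 CPM in D2.1 and 18.8, 15, 38, 30 and 46.7 CPM in D2A1. The lines did not overlap, and 1 D2.1 tumor, replicate 3 in SCID-beige mice, stood above the other 4 of its group. The log2 differences were -2.74 (SE 0.41, edgeR adjusted p = 0.00064) and -3.11 (SE 0.57, adjusted p = 0.0009), and the second was -4.10 (adjusted p = 4.4e-06) without replicate 3.

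Peroxidasin went the other way. It was at 451, 609, 512 and 419 CPM in D2.1 and 268, 337, 200 and 208 CPM in D2A1 tumors of BALB/c mice. In SCID-beige mice it was at 630, 480, 784, 520 and 757 CPM in D2.1 and 316, 204, 403, 398 and 386 CPM in D2A1. Each D2.1 tumor exceeded each D2A1 tumor within a host, by 0.98 (SE 0.20, edgeR adjusted p = 0.0037) and 0.90 (SE 0.21, adjusted p = 0.0052) on the log2 scale. The collagen IV crosslinking enzyme and its major substrate chains differed between the lines in opposite directions in tumors.

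Perlecan (Hspg2) was close in the lines. It was at 448, 489 and 494 CPM in D2.1 replicates 1, 3 and 4, with replicate 2 higher, and at 389, 421, 348 and 310 CPM in D2A1 tumors of BALB/c mice, which did not overlap (0.46, SE 0.15, edgeR adjusted p = 0.034). This call was lost without any 1 of D2.1 replicates 2 and 3 and D2A1 replicates 1, 3 and 4 (adjusted p = 0.091, 0.063, 0.06, 0.066 and 0.1) and without D2.1 replicates 1 and 4 together (0.08). The BALB/c call was also lost when genes with any count were kept, and it held with the replicate number as a block (edgeR adjusted p = 0.0066). In SCID-beige mice, the 251 to 491 CPM of D2.1 and 415 to 521 CPM of D2A1 overlapped (-0.13, SE 0.18, adjusted p = 0.62).

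In all, of 8 members tested in tumors, 5 were lower and 2 higher in D2.1 in BALB/c mice, where 15.8% and 16.8% of 14953 genes were, and 5 were lower and 1 higher in SCID-beige mice, where 14.8% and 17.2% of 14355 genes were. Both hosts gave the same 5 lower members: Col4a1, Col4a2, Col4a6, Nid1 and Nid2. Peroxidasin was the member called higher in both.

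**Figure D3:**
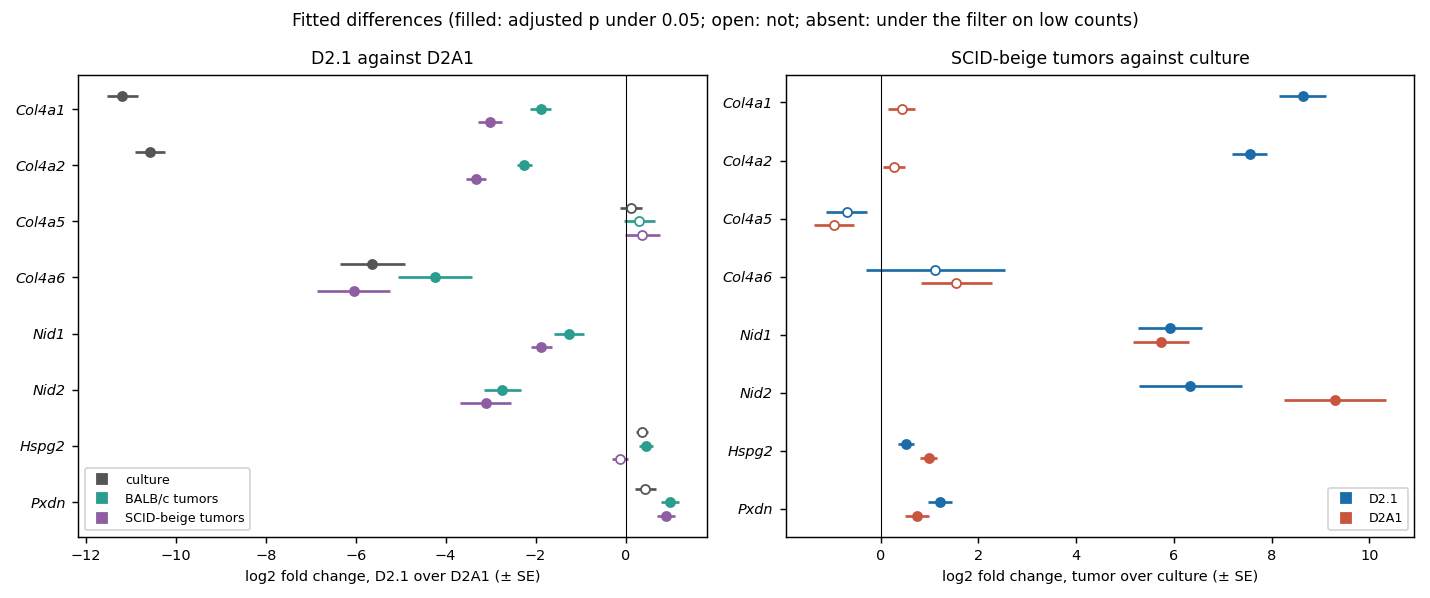
Fitted log2 fold changes with their SE for D2.1 over D2A1 (left: culture, BALB/c tumors and SCID-beige tumors) and for SCID-beige tumors over culture (right: each line), with filled points at adjusted p under 0.05. Col4a1 and Col4a2 move from about -11 in culture to between -1.89 and -3.33 in tumors, and on the right only the D2.1 points of these genes lie far from 0.

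Endothelial markers, like Col4a1, Col4a2, Col4a6, Nid1 and Nid2, were lower in D2.1 tumors. The summed level of 10 endothelial markers was 2.73 to 5.23 CPM in the cultures, 91.4 to 186 CPM in the D2.1 tumors and 307 to 401 CPM in the D2A1 tumors, without overlap between the lines. Of the 10 markers, 8 were called lower in D2.1 in BALB/c mice and 9 in SCID-beige mice, and 0 higher. Markers of pericytes and vascular smooth muscle, the other cells of vessel walls, summed to 598 to 769 CPM in D2.1 and 310 to 533 CPM in D2A1 tumors of BALB/c mice, the opposite order, and to 374 to 724 and 418 to 737 CPM in SCID-beige mice, where they overlapped. Of these 7 markers, 1 was called higher and 1 lower in BALB/c mice, and 0 higher and 4 lower in SCID-beige mice, with medians of 0.17 and -1.35. Cultured cells also held them, at 86.8 to 148 CPM in D2.1 and 37 to 67.5 CPM in D2A1. Fibroblast markers summed to 6153 to 15596 CPM in D2.1 and 1491 to 3831 CPM in D2A1 tumors, but to 1909 to 2783 CPM already in cultured D2.1. All 10 endothelial markers had more than 3 counts in every tumor, and in D2A1 culture Kdr, Emcn and Cldn5 were at 0 in every library.

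Divided by the endothelial sum of its own library, Col4a1 was 0.645 to 1.08 in D2.1 tumors and 1.27 to 3.17 in D2A1 tumors, which still did not overlap. Nid1 by the same measure was 0.0817 to 0.241 in D2.1 and 0.11 to 0.218 in D2A1 tumors, which overlapped in either host. Nid2 was 0.0143 to 0.0444 in D2.1 and 0.0543 to 0.102 in D2A1 tumors of BALB/c mice, which did not overlap. In SCID-beige mice it was 0.0143 to 0.018 in 4 D2.1 tumors and 0.077 in replicate 3, against 0.0397 to 0.123 in D2A1, so that the lines overlapped through replicate 3 alone. The part of vessel cells and fibroblasts in the differences between the tumors was not tested further.

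**Figure D4:**
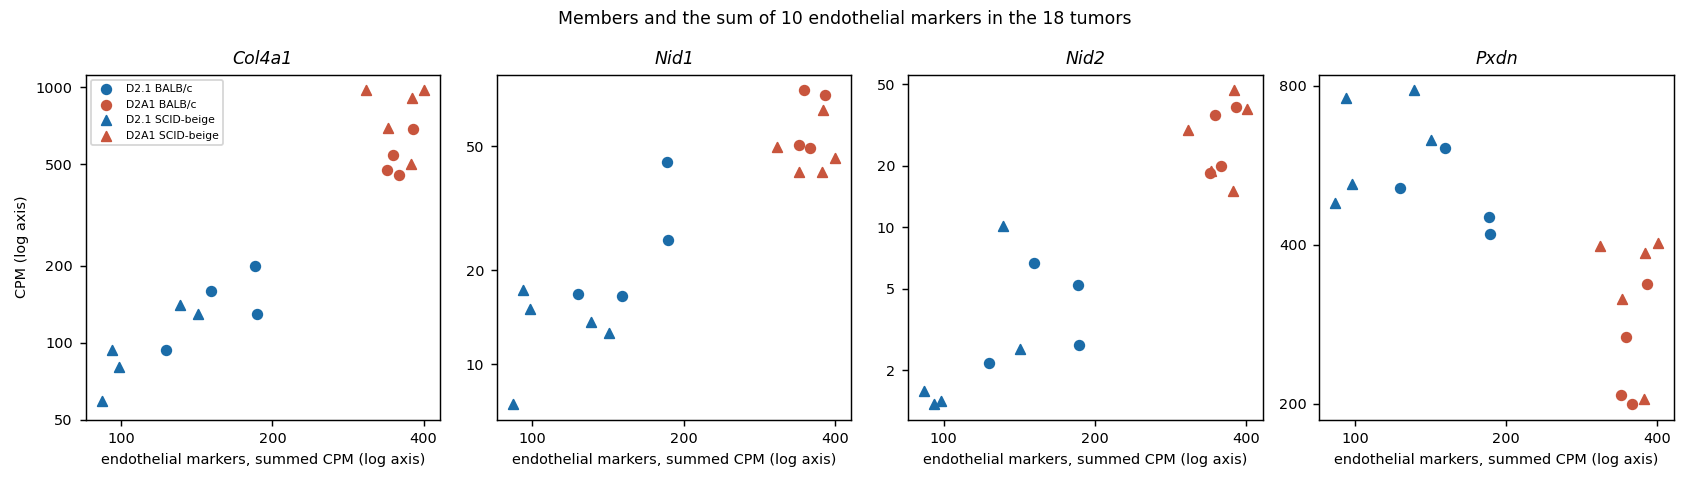
CPM of Col4a1, Nid1, Nid2 and Pxdn against the summed CPM of 10 endothelial markers in the 18 tumors, on log axes (circles BALB/c, triangles SCID-beige, blue D2.1, red D2A1). The lines form separate clouds, with D2.1 between 91.4 and 186 CPM and D2A1 between 307 and 401 CPM of endothelial markers, and Pxdn is the panel in which D2.1 lies higher.

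No host difference of a member passed edgeR's test. In D2.1 tumors, 0 of 7 members tested were called between BALB/c and SCID-beige mice by edgeR or DESeq2, 2 had an unadjusted p under 0.05, and 0.891% of 14929 genes were called. In D2A1 tumors, edgeR called 0 of 8, where 1.17% of 14572 genes were called, 3 had an unadjusted p under 0.05, and DESeq2 called 1. That gene was Col4a2, for which the 391 to 457 CPM in BALB/c mice lay below the 492 to 731 CPM in SCID-beige mice, a log2 difference of -0.60 (SE 0.14, edgeR adjusted p = 0.078, DESeq2 adjusted p = 0.0033, range over the alternatives 0.0033 to 0.68). It passed in edgeR without SCID-beige replicate 2 (-0.70, adjusted p = 0.032). Nid1 had the largest host difference among the D2.1 tumors, 16.6 to 44.6 CPM in BALB/c against 7.47 to 17.3 CPM in SCID-beige mice, and these overlapped (1.0, SE 0.33, edgeR adjusted p = 0.25). Without BALB/c replicate 1, the tumor with the high milk, fat and muscle markers, it was 0.56 (adjusted p = 0.81).

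The major chains leaned in opposite directions in the lines, with BALB/c over SCID-beige differences of 0.57 (SE 0.27) and 0.51 (SE 0.23) for Col4a1 and Col4a2 in D2.1 tumors and of -0.58 (SE 0.22) and -0.60 (SE 0.14) in D2A1 tumors. Without D2.1 replicate 1 in BALB/c mice, the D2.1 differences were 0.36 and 0.35. The interaction of line and host was 1.12 (SE 0.37, edgeR adjusted p = 0.37) for Col4a1 and 1.08 (SE 0.28, adjusted p = 0.24) for Col4a2. In this test edgeR called 0 of 8 members, 3 had an unadjusted p under 0.05, and DESeq2 called 1, Col4a2 (adjusted p = 0.028, range over the alternatives 0.028 to 0.47). The background was 0.0187% of 16036 genes.

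Among the members, Col4a1 and Col4a2 differed most between the lines in their change from culture to tumor. Col4a1 rose from the 2 to 8 counts of cultured D2.1 to the 1010 to 2454 counts of D2.1 tumors in SCID-beige mice, a log2 change of 8.64 (SE 0.48, edgeR adjusted p = 8.2e-13), and Col4a2 by 7.55 (SE 0.36, adjusted p = 9.2e-14). By summed counts these were 443-fold (264 to 810) and 207-fold (133 to 345). In D2A1 the same genes were at 500 to 975 CPM in tumors and 505 to 777 CPM in culture for Col4a1, which overlapped (0.43, SE 0.28, adjusted p = 0.19), and Col4a2 did not pass the test either (0.27, SE 0.22, adjusted p = 0.31). The change differed between the lines by 8.21 (SE 0.53, adjusted p = 1.5e-10) for Col4a1 and 7.28 (SE 0.41, adjusted p = 1.3e-11) for Col4a2.

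The nidogens, near 0 in either culture, were up in tumors of both lines. Nid1 rose by 5.92 (SE 0.66, edgeR adjusted p = 8.1e-08) in D2.1 and 5.74 (SE 0.58, adjusted p = 1.6e-08) in D2A1. The D2A1 value rested on culture replicate 3, with 40 counts, and was 7.96 (SE 0.60) without it. For Nid2, with 2 counts in all over the cultures of each line, the ratio of tumors to culture was 107 in D2.1 (counting interval 29.4 to 888, edgeR adjusted p = 2.6e-05) and 788 in D2A1 (217.8 to 6508, adjusted p = 7.9e-08). Of the 292 tumor counts of D2.1, 177 came from replicate 3, without which the fitted change fell from 6.34 to 5.36 (adjusted p = 1.5e-05). The culture counts of Nid2 came from D2.1 replicate 2 and D2A1 replicate 3, and without these libraries a culture was at 0. The difference between the lines in these rises was 0.17 (SE 0.74) for Nid1 and -2.96 (SE 2.66) for Nid2 and did not pass the test (adjusted p = 0.96 and 0.56). For Nid1 it was -2.10 (adjusted p = 0.14) without D2A1 culture replicate 3. The endothelial sum went from at most 5.23 CPM in culture to at least 91.4 CPM in the tumors beside these rises.

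Peroxidasin and perlecan were higher in tumors of both lines by less. Peroxidasin rose by 1.22 (SE 0.25, edgeR adjusted p = 0.00033) in D2.1 and 0.74 (SE 0.25, adjusted p = 0.016) in D2A1, and perlecan by 0.52 (SE 0.17, adjusted p = 0.014) and 0.98 (SE 0.17, adjusted p = 5.3e-05). The median gene moved by 0.19 and 0.22 in these comparisons, so that the rises above it were 1.03 and 0.52 for peroxidasin and 0.33 and 0.75 for perlecan. The peroxidasin call in D2A1 was lost without D2A1 culture replicate 1 (adjusted p = 0.094) or 2 (0.1), and the perlecan call in D2.1 without D2.1 culture replicate 1 (0.092). Tumors and culture overlapped for peroxidasin in D2A1, at 204 to 403 and 158 to 293 CPM. They also overlapped for perlecan in D2.1, at 251 to 491 and 252 to 336 CPM. Col4a5 was at 82.4, 120, 164 and 57.9 CPM in D2.1 tumors 1 to 4 of SCID-beige mice, with replicate 5 higher, against 156 to 292 CPM in culture, and at 45 to 184 CPM against 170 to 228 CPM in D2A1. These ranges overlapped, and its changes of -0.69 in D2.1 (adjusted p = 0.17) and -0.95 in D2A1 (adjusted p = 0.055) did not pass. The latter passed without D2A1 SCID-beige replicate 5 (-1.34, adjusted p = 0.0073). It also passed in 6 other fits, each without 1 library of a group outside this comparison. Col4a6 changed by 1.55 in D2A1 (SE 0.72, edgeR adjusted p = 0.072), from 1.03 to 1.45 CPM in culture to 1.85 to 5.16 CPM in tumors. It passed in DESeq2 (adjusted p = 0.0096) and with at least 10 counts in every library of a group. It also passed without D2.1 replicate 3 of BALB/c mice or 2 of SCID-beige mice. In D2.1, at 0 to 4 counts, it did not pass (1.12, SE 1.42, edgeR adjusted p = 0.53).

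Of the 8 members tested against culture, 6 were higher and 0 lower in D2.1 tumors (32.4% and 19.6% of 15736 genes), and 4 were higher and 0 lower in D2A1 tumors (33.3% and 20.9%). For the difference between the lines in this change, 2 were higher and 0 lower (4.82% and 7.84%). These comparisons cross 2 tables that were made with different gene lengths, and table, growth in a host and the host's own cells cannot be told apart.

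Other genes of the basement membrane did not follow the collagen IV chains as a block. In culture, of 8 laminin chains tested, 4 were higher and 1 lower in D2.1, with a list median of 0.72 against -0.02 for all genes, of which 24.2% were higher and 20.7% lower. Lama4, the alpha chain of vessel and fat basement membranes, was at 4.81 to 9.96 CPM in D2.1 and at 0 in D2A1. Among 8 other components, 4 were higher and 3 lower, led by Fras1 (-4.72), Smoc2 (4.57) and Col18a1, the source of endostatin (4.56, 627 to 888 CPM in D2.1 against 24.9 to 35.3 CPM in D2A1). Of 14 genes for collagen modification, folding and export, 10 were higher and 1 lower in D2.1. P4ha3, a prolyl 4-hydroxylase subunit, was at 3.20 and P3h2, a prolyl 3-hydroxylase that acts on type IV collagen, at -2.90. Collagen genes outside type IV were also higher in cultured D2.1, with Col3a1 at 5.69 and Col1a1 at 4.66. Both are on the fibroblast marker list, of which 4 genes were tested, 4 higher and 0 lower.

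In tumors, Lama4 and Lama5 differed between the lines in opposite directions. Lama4 was higher in D2.1 (227 to 328 CPM against 46.3 to 67 CPM in BALB/c mice, log2 difference 2.37, SE 0.18), while Lama5, the alpha chain of epithelial and vessel basement membranes, was lower (76.5 to 105 CPM against 331 to 542 CPM, -2.28, SE 0.19). In all, 2 of 11 laminin chains were higher and 2 lower in BALB/c mice (median 0.04), close to the 16.8% and 15.8% over all genes, and 1 of 10 higher and 3 lower in SCID-beige mice (median -0.75, over all genes 17.2% and 14.8%). Of 11 other components, 5 were higher and 2 lower in BALB/c and 6 higher and 3 lower in SCID-beige mice. Among them Smoc2, a secreted calcium-binding matrix protein, was higher in D2.1 (3.15 and 3.46). Tinagl1, a matrix protein of the tubulointerstitial nephritis antigen family, was lower in D2.1 (-2.94 and -2.93), and so was Col15a1, a vessel-associated basement membrane collagen (-1.87 and -2.41).

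Of 11 receptors, 2 were higher and 2 lower in BALB/c mice, again near the share over all genes, and 5 higher and 3 lower in SCID-beige mice, with Itga3, the alpha subunit of a laminin-binding integrin, the largest in size of those called (-2.74 and -2.52). Of 7 turnover genes, 5 were higher and 1 lower in BALB/c and 4 higher and 0 lower in SCID-beige mice, with medians of 1.78 and 1.53. The list joins proteases and the protease inhibitors Timp1, Timp2 and Timp3, so these counts do not give a direction of matrix breakdown. Among the inhibitors, Timp3 was higher in D2.1 in BALB/c mice (2.18), Timp2 in SCID-beige mice (1.57) and Timp1 in culture (2.13). Mmp9, a gelatinase that cleaves type IV collagen, was at 365 to 442 CPM in D2.1 and 41.2 to 61.8 CPM in D2A1 tumors of BALB/c mice (3.05, SE 0.17, edgeR adjusted p = 1.2e-06), and Mmp2, the other gelatinase, was higher in D2.1 as well (1.94 and 1.72). Both were also higher in cultured D2.1 than in cultured D2A1 (Mmp9 2.40, edgeR adjusted p = 0.00029, and Mmp2 5.24, adjusted p = 0.0006). Myeloid cells also make Mmp9, and their summed markers were 483 to 631 CPM in D2.1 and 426 to 692 CPM in D2A1 tumors of BALB/c mice, and 343 to 707 and 292 to 366 CPM in SCID-beige mice, and overlapped in both. Of these 4 markers, 1 was called higher in D2.1 and 1 lower in BALB/c mice, and 2 higher (Adgre1 at 1.15 and Csf1r at 0.92) and 0 lower in SCID-beige mice. Of the collagen modification genes, 6 of 16 were higher and 1 lower in BALB/c and 3 higher and 1 lower in SCID-beige mice. Over all genes, 16.8% were higher and 15.8% lower in BALB/c mice, and 17.2% and 14.8% in SCID-beige mice. The 3 of 16 modification genes were near that share.

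**Figure D5:**
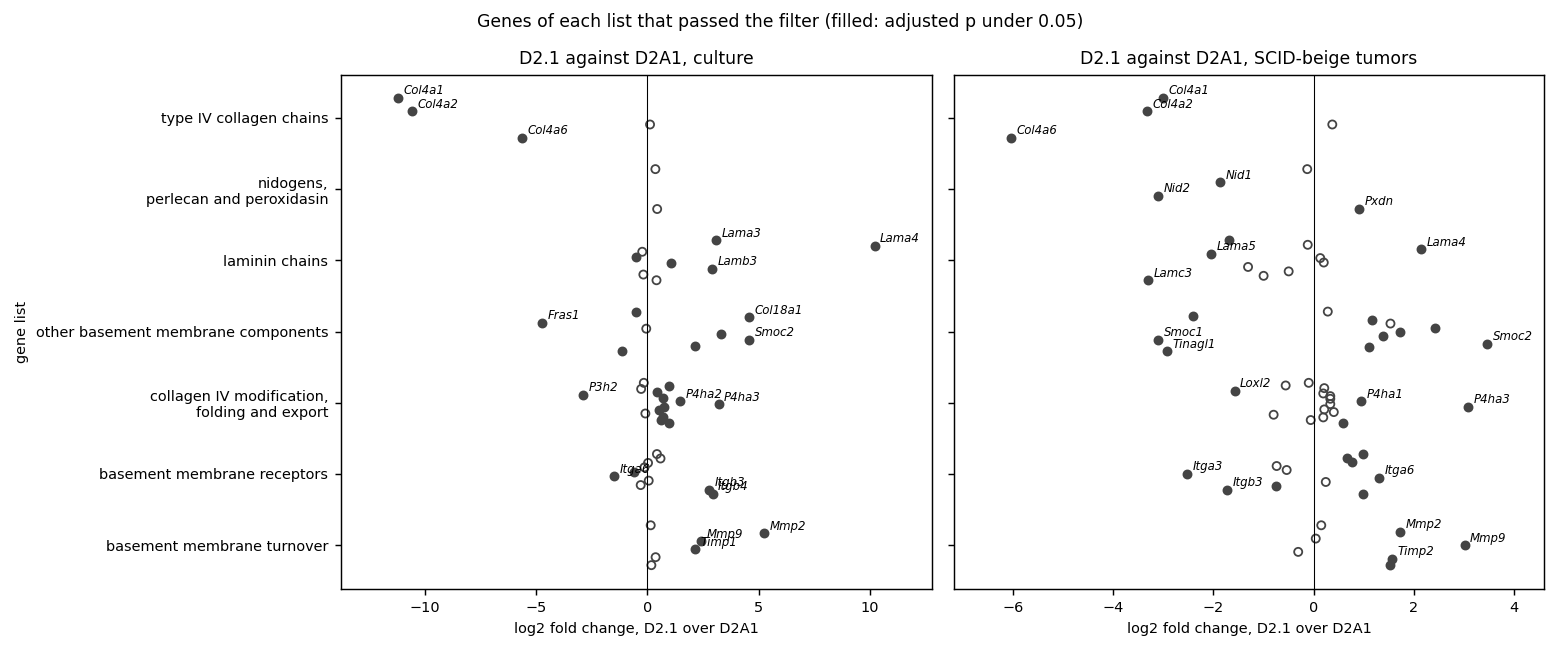
Log2 fold change of D2.1 over D2A1 for each tested gene of the 7 lists, in culture (left) and in SCID-beige tumors (right), with filled points at adjusted p under 0.05 and up to 3 called genes named per list. Col4a1 and Col4a2 stand at -11.19 and -10.58 in culture, opposite to Lama4 at 10.21, a fitted value against D2A1 libraries at 0 counts that is no bound.

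Between hosts, 0 genes of the 5 further lists were called in either line, near the share over all genes (0.891% in D2.1 and 1.17% in D2A1). Against culture, 4 of 11 laminin chains were higher and 1 lower in D2.1 tumors of SCID-beige mice, and 7 higher and 0 lower in D2A1 tumors, where 32.4% and 33.3% of all genes were higher and 19.6% and 20.9% lower. The D2.1 count was near the share over all genes. The other components gave 7 higher and 1 lower of 12 in D2.1 and 8 higher and 3 lower in D2A1, and collagen modification genes 6 higher and 0 lower of 16 in D2.1 and 12 higher and 2 lower in D2A1. For the difference between the lines in this change, 6 laminin chains and 5 other components were lower and 0 and 1 higher (7.84% and 4.82% of all genes), the opposite direction from Col4a1 and Col4a2. For example, Col18a1 differed by -3.38 (SE 0.25, edgeR adjusted p = 1.7e-09).

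Within groups, Col4a1 varied together with Col4a2. Over the 18 tumors, after the mean of each group was subtracted, the Pearson correlation of their log2 CPM was 0.91. That of Col4a1 was 0.79 with Nid2, 0.71 with Pxdn, 0.62 with Nid1, 0.51 with Col4a5 and 0.37 with Hspg2. With Col4a6 it was -0.21 (Spearman 0.04), a value that rests on few counts. Col4a6 was at 0 in 2 of 4 D2.1 tumors of BALB/c mice and 4 of 5 of SCID-beige mice. Outside the members, the 10 most alike of 10849 protein-coding genes were Mtus1 (0.90), Antxr2 (0.89), Fbxo45 (0.86), Adgrf5 and Maco1 (0.85), Slc7a11, Thnsl1, Tgfbr2 and Aldh1l2 (0.84) and Wdr45b (0.83). Antxr2 encodes a receptor that binds type IV collagen and laminin. Of the endothelial markers, Cdh5 reached 0.81 and the median was 0.42, from -0.37 for Egfl7 upward, where the median gene was at -0.01. These tumors share lines, hosts and a range of depth, and the values describe likeness in them without a test.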

How the data were processed

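RNA-seq of 6 cultures and 18 tumors was sequenced by Novogene. The authors deposited raw read counts per gene and FPKM, which equals counts over gene length and library total for 100% of genes. The lengths behind FPKM differ between the cell and tumor tables (Col4a1 6615 and 2141 bases), so FPKM were compared within a table. Submitters' processing notes name STAR and mm10, and strand use is not given in the sources used here.

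Genes were matched to GENCODE M21. Counts were tested with edgeR 4.0.16 (TMM, filterByExpr, robust quasi-likelihood, R 4.3.3) at Benjamini-Hochberg adjusted p under 0.05 over all genes, with only the compared groups in each fit. Line by host used the 4 tumor groups and comparisons with culture all 6. DESeq2 1.42.0, other size factors, filters, the replicate block, 1 fit of all tumors and each library left out were alternatives. Tests were checked on simulated data. The 38 replicate pairs held no copies (chi-square per degree of freedom at least 4.96).

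Same-numbered libraries deviated together for the lines in culture (correlations 0.1841 to 0.4912) and in BALB/c mice (0.1004 to 0.4907). A fit with the replicate block was therefore set beside the main fit, which has no block. Its adjusted p-values are given for perlecan and peroxidasin in culture and for perlecan in BALB/c mice. This pairing comes from the data alone. Members and lists were chosen with earlier results of these data known. All members are described, and of the other lists at most the 3 largest called genes per comparison. The genes searched for likeness had at least 5 CPM, a limit not set for members and endothelial markers.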

Additional observations from a re-analysis of the deposited data

Results flagged for a closer look

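Nid2 in the D2.1 tumor of replicate 3 in SCID-beige mice was at 10.1 CPM, far above the next tumor of its group at 2.55 CPM. This tumor also had the highest Col4a1 (140 CPM), Col4a2 (87.7 CPM) and Pxdn (784 CPM) of its group, with an adipocyte marker sum of 2.9 CPM, the lowest of the group. Hspg2 in the D2.1 tumor of replicate 4 in SCID-beige mice was at 251 CPM, far below the next at 436 CPM, and this tumor had the highest skeletal muscle marker sum of its group (264 CPM). Over the members, 30 groups of 4 or 5 tumors were examined and 2 held such a value, and chance flags about 1 in 20 groups.

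The change from culture to SCID-beige tumors differed between the lines by 8.21 on the log2 scale for Col4a1 and 7.28 for Col4a2, as a tested interaction (edgeR adjusted p = 1.5e-10 and 1.3e-11), with D2.1 at 2 to 9 counts of either gene in culture.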

How the results depend on the processing

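Of the 9 counts of called members, 6 stayed within 1.5 times under each alternative run. In culture the count was 3, and it was 4 in DESeq2, where perlecan passed, and 3 to 4 with 1 library left out. It was 5 with the replicate block and 5 without replicate 3 of both lines, since perlecan and peroxidasin passed. The latter alternative was added after seeing the data. Between hosts in D2A1 tumors, it was 0, 1 in DESeq2 and 0 to 1 with 1 library left out, and for line by host 0 and 1 in DESeq2, each through Col4a2. The replicate block changed no other call of a member. Over all genes, calls went from 133 to 590 in DESeq2 and 14 with the block between hosts in D2.1, from 170 to 517 and 0 in D2A1, and from 3 to 104 in DESeq2 for line by host. Between the lines in SCID-beige mice, same-number correlations were 0.2526, 0.2563, 0.1794, -0.1605 and 0.3443, so pairing by number was unclear there. Between hosts they ran from -0.4407 in D2A1 to 0.1692 in D2.1 tumors, and the numbers were not taken as pairs.

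The sign turned in 30 refits of 10 member differences that did not pass the test, and 0 of these refits passed it. With 1 library left out, Col4a5 ranged from -0.21 to 0.28 between lines in culture, -0.11 to 0.52 in BALB/c tumors, -0.32 to 0.35 between hosts in D2.1, -0.10 to 0.45 in D2A1 and -0.47 to 0.21 for line by host. Nid2 ranged from -0.27 to 0.15 between hosts in D2A1, Pxdn from -0.03 to 0.25 for line by host, and Col4a6 from -1.76 to 2.88 against culture in D2.1. For the line difference against culture, Col4a6 ranged from -3.31 to 1.34 and Nid1 from -2.10 to 0.65. Col4a5 was -0.09 between lines in culture without both replicates 3, and 0.02 for line by host in DESeq2 and with its size factors. Nid2 was 0.16 between hosts in D2A1 with the replicate block. The cause was not tested. FPKM levels in tumors moved by over 1 SD in 22 of 40 values with the gene lengths of the cell table, and 60 of 60 stayed within 1 SD with TMM scaling.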
